A study of Mus musculus with 8 samples.

Results

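The histone genes measured in polyadenylated RNA of mouse mammary basal cells were chosen by symbol. They are the protein-coding GENCODE M21 genes whose names start with Hist1h, Hist2h, Hist3h or Hist4h, the replication-dependent clusters, or with H2af, H3f3 or H1f, the variants. The rule took 82 genes, 67 replication-dependent and 15 variant, of 54837 gene identifiers in the count table. Basal cells form the outer layer of the mammary ducts and include the contractile myoepithelial cells. Untreated cells of C57BL/B6 mice, as the strain is labelled, were sorted into G1, the growth phase before DNA synthesis, and G0, the resting state of cells that have left the division cycle. Each of 4 runs gave 1 G1 and 1 G0 library. The genotype is given no further than the strain, and the animals' age, the number of animals pooled per run and the markers used for the sort are in none of the sources used here.

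Histones are the proteins that package DNA. A pair each of H2A, H2B, H3 and H4 wraps DNA into the nucleosome, and the linker histone H1 binds where DNA enters and leaves it. Messages of the replication-dependent genes are made mainly in S phase and normally end in a conserved stem-loop with no poly(A) tail, so selection with oligo-dT beads takes up mainly those that carry a tail. Most variant histone genes are transcribed through the cell cycle as ordinary polyadenylated messages, and their proteins can enter chromatin without DNA replication. The variant H2afx differs in sequence, since its annotation holds the stem-loop and runs on for 822 bases past it. Whether H2afx messages ended at the stem-loop or in a tail was not tested.

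Total counts per library were 13711195, 12599720, 10594434 and 6807090 in the G1 libraries of runs 1 to 4, and 10609474, 10530807, 15014104 and 5868728 in the G0 libraries. Counts on 39094 genes were found in the G0 library of run 4, against 20836 to 26614 in the other 7 libraries. Levels are given as CPM, counts scaled to the library's total, adjusted by TMM factors, and levels of different genes are compared as CPM per kb of the longest annotated transcript. The summed level of 10 basal markers was 32626 to 36428 CPM in G1 and 23452 to 30661 CPM in G0. Of the 10, 9 had positive fold changes, and 2, Acta2 and Cnn1, were higher in G1 past an edgeR adjusted p of 0.05. Acta2, among the largest in the sum, averaged 12151.5 ± 2177 CPM in G1 and 7886 ± 1412 CPM in G0. Krt5 and Krt14 had log2 fold changes of 0.05, Itga6 0.01 and Trp63 -0.01. All 8 endothelial markers were lower in G1 past that threshold, with sums of 18.8 to 85.5 CPM in G1 and 118 to 220 CPM in G0. Of 5 fibroblast markers, the 3 genes Col1a1, Col1a2 and Lum were lower past it. Dcn, which gave most of the summed fibroblast level, averaged 254 ± 62.4 CPM in G1 and 177 ± 83.1 CPM in G0, with a log2 fold change of 0.58 ± 0.16 and an edgeR adjusted p of 0.0974. The fibroblast sums were 202 to 442 CPM in G1 and 167 to 582 CPM in G0. Of the immune, luminal and adipocyte markers with enough counts none passed, and no erythroid marker could be tested. Fabp4, the only adipocyte marker tested, averaged 87.8 ± 67.1 CPM in G1 and 218 ± 120 CPM in G0. Its log2 fold change was -1.50 ± 0.27, with an edgeR adjusted p of 0.0784. The sums of immune, luminal, adipocyte and erythroid markers were 41.0 to 373, 1063 to 1677, 25.9 to 181 and 0 to 25.9 CPM in G1, against 54.5 to 348, 943 to 1885, 129 to 394 and 0 to 1.78 CPM in G0. The part of these other cells in the histone results was not tested. In such bulk samples fewer cells of a type and less RNA per cell cannot be told apart. Both libraries of run 3 stood apart from the other 6 for several histone genes, described below, and each call is also given without that run.

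Most replication-dependent genes were close to undetectable in these libraries, and a few carried nearly all of the signal. Of the 67, 10 had no count in any library and 23 had 1 to 9 counts over all 8. A count of 0 allows a level of up to 0.211 to 0.533 CPM, set at 3 counts of a library's total. The low-count filter kept 12 of the 67 for testing, and the highest total among the other 55 was 68 counts. All 13 H4 genes and all 6 H1 genes had counts, whereas 5 of 18 H2A genes, 4 of 18 H2B genes and 1 of 12 H3 genes had none. Of the 15 variants, 10 were tested, 1 had no counts and the other 4 had 13 counts or fewer. Those 5 were H1foo, the oocyte linker histone, H1fnt, the linker histone of spermatids, and H2afb1, H2afb2 and H2afb3. All counts of H1fnt, H2afb2 and H2afb3 came from the G0 library of run 4, the library with counts on 39094 genes.

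H3f3b, which encodes the replacement histone H3.3, had the highest mean level of all 82 genes, 1047 CPM per kb. The next variants were H2afz, encoding H2A.Z, at 183, H3f3a, the other H3.3 gene, at 145, H1f0, encoding the linker histone H1.0, at 92.9, and H2afj at 54.3 CPM per kb. Hist1h1c, encoding the linker histone H1.2, led the replication-dependent genes with 55.9 CPM per kb. Hist1h2bc, an H2B gene, followed with 23.2, and then 3 H4 genes, Hist1h4d with 5.61, Hist1h4h with 2.99 and Hist1h4c with 1.81 CPM per kb. H2afy, H2afv, H2afx, H2afy2 and H1fx, the other tested variants, stood at 43.2, 40.8, 22.9, 14.5 and 1.99 CPM per kb, and no replication-dependent gene other than Hist1h1c and Hist1h2bc was above H2afy2.

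**Figure D1:**
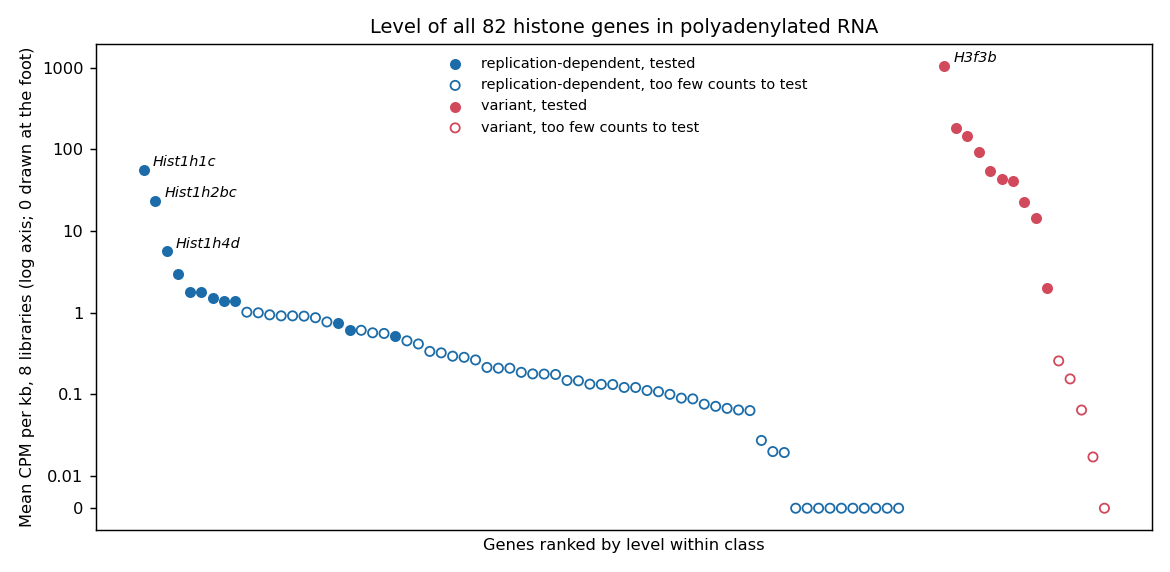
Mean level over 8 libraries of the 82 histone genes, in CPM per kb on a log axis, ranked within each class; filled points were tested, open points had too few counts, and genes with no count are drawn at the foot. Hist1h1c at 55.9 and Hist1h2bc at 23.2 CPM per kb stand above the other replication-dependent genes, and H3f3b at 1047 leads the variants.

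Annotated 3′ ends differed among the replication-dependent genes. The stem-loop was searched in the annotated transcripts as GGNNCTTTTNAGNNCC, in the sense direction, and 44 of the 67 replication-dependent genes held it (65.7%). It was found in 1 of 15 variants, H2afx, and in 33 of 21869 other protein-coding genes (0.151%). The most common form, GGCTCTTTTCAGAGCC, stood in 26 genes and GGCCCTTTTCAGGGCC in 7. The stem-loops of the genes described below are shown because messages without a tail end just after them, and capitals mark the stem-loop itself. Positions are on GRCm38 (mm10), each in the single exon of its gene: chr13:23739507-23739532 on the plus strand for Hist1h1c, chr13:23581945-23581970 on the plus strand for Hist1h4d, chr13:23531453-23531478 on the plus strand for Hist1h4h, chr13:23698084-23698109 on the minus strand for Hist1h4c, chr6:136803993-136804018 on the minus strand for Hist4h4 and chr9:44335235-44335260 on the plus strand for H2afx.
Hist1h1c: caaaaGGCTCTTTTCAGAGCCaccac
Hist1h4d: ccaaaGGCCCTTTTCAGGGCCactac
Hist1h4h: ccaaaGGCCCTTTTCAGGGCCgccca
Hist1h4c: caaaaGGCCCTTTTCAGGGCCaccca
Hist4h4: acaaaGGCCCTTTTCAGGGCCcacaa
H2afx: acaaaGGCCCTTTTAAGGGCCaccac

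The 4 H4 genes shared the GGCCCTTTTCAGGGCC form, and Hist1h1c had the more common one. The annotation of Hist1h1c runs on for 840 bases past its stem-loop, that of Hist1h4d for 770, Hist1h4c for 454, Hist4h4 for 2445 and H2afx for 822, but that of Hist1h4h for only 46. Of 22 replication-dependent genes annotated more than 100 bases past the stem-loop, 8 were tested, with a median of 57.5 counts per gene over all libraries and 0.608 CPM per kb. Of 22 genes annotated 100 bases or less past it, 2 were tested, with medians of 5 counts and 0.126 CPM per kb. Among 23 genes with no match in their annotation, 2 were tested, with medians of 4 counts and 0.132 CPM per kb. Some of these annotations hold little beyond coding sequence. The H2B genes Hist1h2bl and Hist1h2bn are annotated at 381 bases, against 378 coding bases in Hist1h2bc. For such genes a missing match does not show that the stem-loop is absent. These are levels as counted over the annotation, and longer annotated ends also offer more sequence to count.

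Shared sequence moved with these levels. Of 28 genes with more than 50% of their 100-base windows found in another gene, 1 was tested, and of 39 with less sharing, 11 were. Genes annotated past the stem-loop shared a median of 14.6% of windows, against 54.5% for those that end near it, so reads that fit several copies cannot be separated here from a low level. The tested gene with shared sequence was Hist2h2aa2, an H2A gene that shares 100% of its windows.

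**Figure D2:**
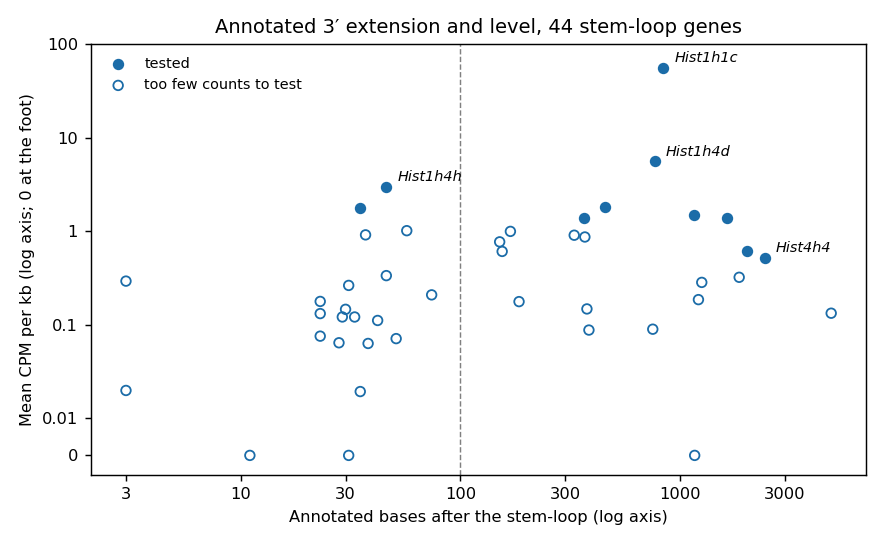
Mean CPM per kb of the 44 replication-dependent genes with a stem-loop, against the annotated bases past it, both on log axes; filled points were tested, open points had too few counts, genes with no count are drawn at the foot, and the dashed line marks 100 bases. Of the genes right of the line 8 of 22 were tested, and of those left of it 2 of 22.

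Hist1h2bc differed from the stem-loop genes in its annotated structure. It spans chr13:23684199-23692908 on the plus strand in 2 exons. The first, of 423 bases at chr13:23684199-23684621, holds the whole coding sequence, chr13:23684232-23684609. An intron of 7554 bases separates it from a second, noncoding exon of 733 bases at chr13:23692176-23692908. The spliced transcript held no stem-loop match, and 25.4% of its windows were shared with another gene. The first exon ends shortly after the coding sequence, and the intron that follows was not searched. The missing match therefore does not show that the gene lacks a stem-loop. Neither Hist1h2bc nor Hist1h1c overlapped another annotated gene.

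The comparison of G1 with G0 within each run asks whether histone messages in polyadenylated RNA differ between growth phase and resting basal cells. Hist1h2bc and Hist1h1c were higher in G1 in all 4 runs and passed the test, and they were the only 2 of the 22 tested histone genes that did. None of the 22 was lower past the threshold, and 2 were lower at an unadjusted p under 0.05. Over all 15192 tested genes, 1.24% were called at an adjusted p under 0.05, 0.481% higher and 0.764% lower in G1, by edgeR's quasi-likelihood test with the run as a block. Of the 12 tested replication-dependent genes 2 were called higher, and of the 10 tested variants 0, with 1 at an unadjusted p under 0.05. DESeq2 and limma-voom called the same numbers.

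Hist1h2bc, which encodes core histone H2B, had 36.5, 36.4, 21.4 and 46.1 CPM in the G1 libraries of runs 1 to 4, against 23.0, 18.5, 10.5 and 22.4 CPM in the G0 libraries. The G1 library was the higher in every run, but the groups overlapped, since the G1 library of run 3 lay below the G0 libraries of runs 1 and 4. Its mean was 35.1 ± 10.2 CPM in G1 and 18.6 ± 5.77 CPM in G0 (SD, n = 4 each). The difference was a log2 fold change of 0.92 ± 0.15 (SE), 1.90-fold higher in G1, with an edgeR adjusted p of 0.00119. The per-run log2 ratios were 0.66, 0.97, 1.02 and 1.03. Under 11 alternatives that kept the run in the model, the edgeR, DESeq2 or limma-voom adjusted p lay between 5.76e-06 and 0.0191. Without the run in the model the log2 fold change was 0.92 and an edgeR adjusted p of 0.9999 (0.00825 unadjusted), so that the call rests on the comparison within runs.

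Hist1h1c, which encodes linker histone H1.2 and lies at chr13:23738808-23740367 on the plus strand in 1 exon, had 82.2, 141, 25.9 and 183 CPM in G1, against 54.3, 102, 14.5 and 95.1 CPM in G0. It too was higher in G1 in every run, while its level differed more between runs than between phases, with both libraries of run 3 below all others. Its mean was 108 ± 68.6 CPM in G1 and 66.4 ± 40.5 CPM in G0 (SD, n = 4 each). The log2 fold change was 0.71 ± 0.12 (SE), 1.63-fold higher in G1, with an edgeR adjusted p of 0.00218. Per-run log2 ratios were 0.60, 0.47, 0.83 and 0.94. Over the same 11 alternatives its adjusted p lay between 5.85e-05 and 0.0478, and the call was lost without the run in the model, where the unadjusted edgeR p was 0.336. Among the 73 genes called higher in G1, Hist1h2bc ranked 17th by fold change and 8th by p, and Hist1h1c 34th and 10th.

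**Figure D3:**
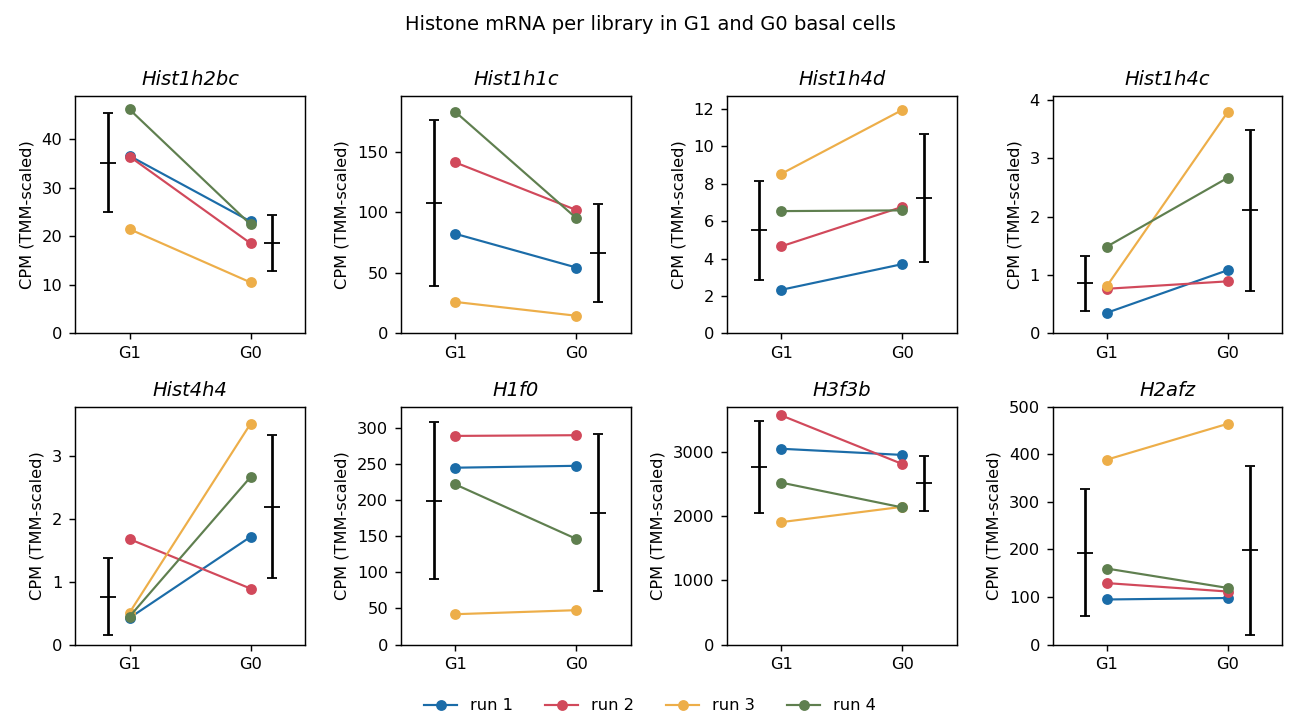
CPM per library of 8 histone genes in G1 (left) and G0 (right), with lines joining the libraries of a run and black bars showing the mean and SD of each phase. Hist1h2bc and Hist1h1c are higher in G1 in all 4 runs, Hist1h4d and Hist1h4c are lower in all 4, and H1f0, H3f3b and H2afz differ more between runs than between phases.

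Of the annotated genes between this pair, only Hist1h4c and Hfe had enough counts to be tested, and neither was called. Over all tested genes 1.24% were called, so the lack of a call among so few genes is uninformative. Hist1h2bc and Hist1h1c lie 45.9 kb apart, with 4 annotated genes between them. Hist1h1t, the testis linker histone, averaged 0.0763 ± 0.153 CPM in G1 and 0.245 ± 0.320 CPM in G0, below the testing filter. The pseudogene Gm11338 was below it too, with 0.0372 ± 0.0743 CPM in G1 and 0.267 ± 0.533 CPM in G0. Hfe, which encodes a regulator of iron uptake, averaged 8.88 ± 2.57 CPM in G1 and 9.70 ± 3.13 CPM in G0, with a log2 fold change of -0.12 ± 0.22 and an edgeR adjusted p of 0.888. Hist1h4c, also between them, is described with the H4 genes. Hist1h2ac, an H2A gene, starts 250 bases from Hist1h2bc on the opposite strand. It had 0.635, 0.992, 2.03 and 1.78 CPM in G1, against 1.08, 0.623, 3.02 and 1.96 CPM in G0. Its log2 fold change was -0.24 ± 0.50, and no difference was detectable at this depth.

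The promoter of Hist1h1c is shown with that of Hist1h1e, the other tested replication-dependent linker histone gene. RefSeq (GRCm38.p6) held a promoter, from 250 bases before to 50 after the start, at the annotated position of 74 of the 82 genes. Hist1h2bc was not among them, so its promoter is not shown and is not in the motif counts that follow. Capitals mark the H1 box, with the letters AAACACA, the CCAAT box and the TATA box, with the letters TATAAA, each searched on both strands. The windows are chr13:23738557-23738856 on the plus strand and chr13:23622509-23622808 on the minus strand.
Hist1h1c: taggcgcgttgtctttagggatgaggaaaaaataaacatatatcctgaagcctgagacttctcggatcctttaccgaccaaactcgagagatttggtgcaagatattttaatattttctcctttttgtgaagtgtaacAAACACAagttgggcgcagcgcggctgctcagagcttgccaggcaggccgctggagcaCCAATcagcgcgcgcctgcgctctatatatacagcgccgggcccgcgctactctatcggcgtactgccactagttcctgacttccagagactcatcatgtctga
Hist1h1e: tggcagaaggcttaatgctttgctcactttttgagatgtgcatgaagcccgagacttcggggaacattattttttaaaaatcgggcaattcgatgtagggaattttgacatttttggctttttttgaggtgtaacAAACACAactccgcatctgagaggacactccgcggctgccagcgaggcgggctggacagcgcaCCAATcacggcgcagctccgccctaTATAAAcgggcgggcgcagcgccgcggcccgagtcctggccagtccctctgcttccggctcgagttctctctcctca

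The H1 box began 112 and the CCAAT box 54 bases before the start in Hist1h1c, and at 115 and 52 bases in Hist1h1e. The letters TATAAA were found in Hist1h1e, 27 bases before the start, and not in this window of Hist1h1c. The search took only these exact letters. The stretch tatatata, which follows the CCAAT box in Hist1h1c, was therefore left unmarked, and the search does not show that Hist1h1c lacks a TATA box. The H1 box was in 5 of 6 promoters of replication-dependent H1 genes and in 7.14% of all 27025 promoters. CCAAT stood in 52 of 61 replication-dependent promoters (85.2%), in 9 of 13 variant promoters and in 37.9% of all. TATAAA stood in 57.4% of replication-dependent promoters, in 1 of 13 variant promoters and in 14.2% of all. The octamer ATTTGCAT, known from H2B promoters, was in 6 of 16 replication-dependent H2B promoters and in 1.75% of all. A match of letters is a description and does not show binding.

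Hist1h1e, which encodes H1.4, had 3.10, 3.51, 3.66 and 2.23 CPM in G1, against 2.62, 3.56, 2.74 and 1.60 CPM in G0. G1 was higher in 3 of the 4 runs and the groups overlapped, with a log2 fold change of 0.26 ± 0.36 and an edgeR adjusted p of 0.841. Part of its annotation overlaps the H2B gene Hist1h2be on the same strand.

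The tested H4 genes all had fold changes below 0, and none passed the threshold. Hist1h4d had 2.33, 4.65, 8.53 and 6.54 CPM in G1, against 3.70, 6.77, 11.95 and 6.58 CPM in G0. The G1 library was lower in every run, by least in run 4, with overlapping groups and a log2 fold change of -0.43 ± 0.25 (edgeR adjusted p = 0.526). Hist1h4c had 0.352, 0.763, 0.813 and 1.49 CPM in G1, against 1.08, 0.890, 3.80 and 2.67 CPM in G0. It was also lower in G1 in all 4 runs, by a log2 fold change of -1.23 ± 0.53, with an edgeR p of 0.0289 before and an adjusted p of 0.325 after adjustment. For comparison, 9.44% of all tested genes were lower in G1 in all 4 runs and 12.3% had an unadjusted p under 0.05 in either direction.

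Hist4h4 had 0.423, 1.68, 0.508 and 0.446 CPM in G1, against 1.71, 0.890, 3.52 and 2.67 CPM in G0. G1 was lower in runs 1, 3 and 4 and higher in run 2, where the G1 level lay close to the G0 level of run 1. The log2 fold change was -1.49 ± 0.61, with an edgeR p of 0.0210 and an adjusted p of 0.286. With 1 run left out it lay between -2.42 (without run 2, edgeR adjusted p = 0.0914) and -1.03 (without run 3, edgeR adjusted p = 0.603). Hist1h4h had 0.635, 0.610, 3.56 and 1.04 CPM in G1, against 0.903, 1.42, 2.18 and 0.889 CPM in G0. The groups overlapped, and its log2 fold change of -0.14 ± 0.53 changed sign under other settings.

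The other 4 tested replication-dependent genes had 76 to 274 counts over all libraries, and none was called. Hist3h2a, an H2A gene, had a log2 fold change of 0.26 ± 0.38, Hist1h3f, an H3 gene, 0.13 ± 0.48, and Hist2h2be, an H2B gene, -0.05 ± 0.51. Hist2h2aa2, an H2A gene, stood at -1.03 ± 0.67, with edgeR adjusted p of 0.584. Over the 12 tested genes the median log2 fold change was -0.10 and 5 were positive, against a median of 0.01 and 7769 positive among all 15192 tested genes. The sign of that median is not firm: it was above 0 under 6 of 14 settings, and between -0.18 and 0.69 over them.

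**Figure D4:**
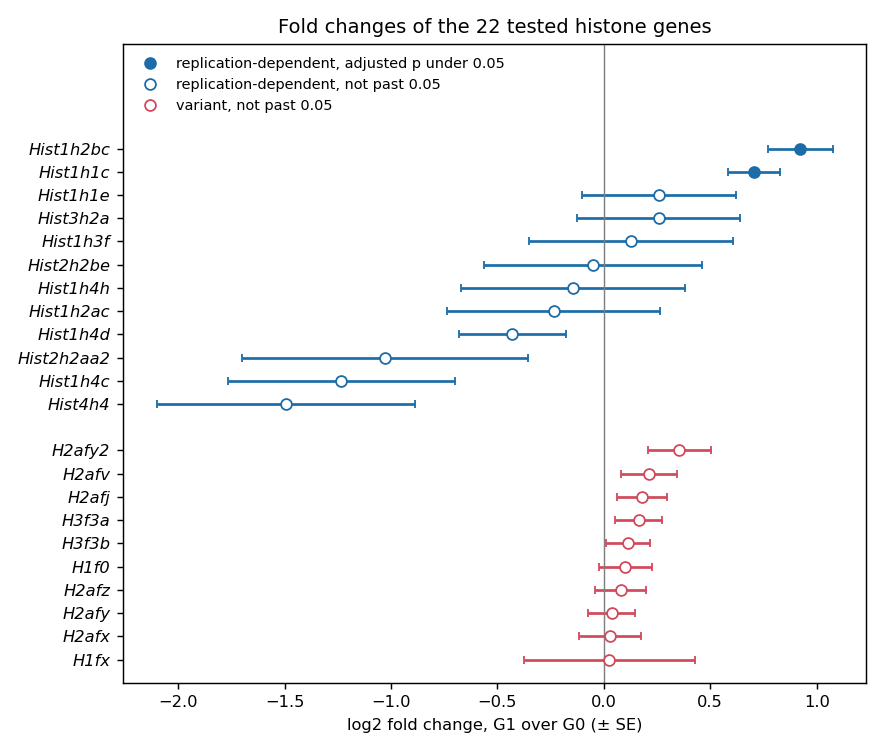
Log2 fold change, G1 over G0, with its SE for the 22 tested histone genes, replication-dependent above and variant below; filled points passed an adjusted p of 0.05. Hist1h2bc at 0.92 and Hist1h1c at 0.71 are the filled points, the 4 H4 genes lie below 0, and the variants lie between 0.03 and 0.35.

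Variant genes differed little between the phases. All 10 tested variants had fold changes above 0, of 0.03 to 0.35 with a median of 0.11, and none passed the threshold. Fewer were positive under some settings, down to 6 of 10 without run 4. H3f3b had 3045, 3565, 1904 and 2519 CPM in G1, against 2950, 2809, 2142 and 2133 CPM in G0. G1 was higher in runs 1, 2 and 4 and lower in run 3, with a log2 fold change of 0.12 ± 0.10 (edgeR adjusted p = 0.721). H3f3a, which encodes the same H3.3 protein, had 189, 410, 649 and 503 CPM in G1, against 199, 347, 616 and 378 CPM in G0. G1 was higher in runs 2, 3 and 4, and the log2 fold change was 0.16 ± 0.11 (edgeR adjusted p = 0.597).

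H2afz, whose product H2A.Z marks promoters, had 94.7, 129, 389 and 160 CPM in G1, against 97.8, 112, 465 and 119 CPM in G0. The phases split evenly, with G1 higher in runs 2 and 4 and lower in runs 1 and 3, and both libraries of run 3 were above all others. Its log2 fold change of 0.08 ± 0.12 turned to -0.04 without the run in the model. H1f0, whose product H1.0 is known to accumulate in resting and differentiated cells, had 245, 289, 42.0 and 222 CPM in G1, against 247, 290, 47.5 and 146 CPM in G0. Values within runs 1 and 2 were nearly equal, run 3 stood far below in both phases, and run 4 alone was higher in G1. The log2 fold change was 0.10 ± 0.12 (edgeR adjusted p = 0.806), and it was -0.07 without run 4.

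H2afj, a mammalian H2A variant, had 92.6, 95.6, 148 and 86.4 CPM in G1, against 84.5, 97.5, 125 and 66.3 CPM in G0. G1 was higher in 3 of 4 runs, with a log2 fold change of 0.18 ± 0.12 (edgeR adjusted p = 0.582). H2afy2, which encodes the large variant macroH2A2, had 39.2, 32.0, 34.2 and 36.4 CPM in G1, against 33.0, 30.7, 23.8 and 23.6 CPM in G0. It was the only variant higher in G1 in all 4 runs, by least in run 2, and the lowest G1 library lay below the highest G0 library. The log2 fold change was 0.35 ± 0.15, with an edgeR p of 0.0247 and an adjusted p of 0.305, and 11.3% of all tested genes were higher in G1 in all 4 runs. H2afv, a second H2A.Z gene, had a log2 fold change of 0.21 ± 0.13, H2afy, encoding macroH2A1, 0.04 ± 0.11, H2afx, whose product is phosphorylated at DNA breaks, 0.03 ± 0.14, and the linker variant H1fx 0.03 ± 0.40.

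None of the 22 tested genes had G1 and G0 libraries that did not overlap. That is near the share over all tested genes. Of those, 0.829% had every G1 library above every G0 library and 1.17% the reverse. The smallest SE among the tested variants was 0.10 and the largest 0.40, and among replication-dependent genes they ran from 0.12 to 0.67.

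Summed over all 67 genes, replication-dependent messages reached 142, 208, 84.5 and 263 CPM in the G1 libraries of runs 1 to 4, against 100.2, 149, 71.8 and 160.2 CPM in G0. G1 was higher in each run, by a mean log2 ratio of 0.48 ± 0.20 (SD over 4 runs). Without Hist1h1c and Hist1h2bc, the other 65 genes summed to 23.7, 29.98, 37.2 and 33.6 CPM in G1, against 22.8, 28.8, 46.8 and 42.7 CPM in G0. Their per-run log2 ratios of 0.05, 0.06, -0.33 and -0.35 had no shared sign. The 15 variants summed to 3982, 4762, 3498 and 3806 CPM in G1, against 3896, 3934, 3713 and 3106 CPM in G0, a mean log2 ratio of 0.13 ± 0.19. These sums are descriptions and were not tested.

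Replication-dependent genes thus made up a small share of all histone counts. The share was larger in G1 with Hist1h1c and Hist1h2bc included, while the other 65 genes had no shared direction in summed level. They took 3.45%, 4.18%, 2.36% and 6.46% of histone counts in the G1 libraries of runs 1 to 4, against 2.51%, 3.65%, 1.90% and 4.90% in the G0 libraries. In run 1 the 95% Wilson interval was 3.31 to 3.60% in G1 and 2.37 to 2.66% in G0, and in no run did the intervals of the phases overlap. The intervals cover counting error only, and run 4 G0 lay above run 1 to 3 G1. Hist1h1c and Hist1h2bc together held 83.4%, 85.6%, 56.0% and 87.2% of the replication-dependent counts in G1, against 77.2%, 80.7%, 34.8% and 73.4% in G0.

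Within families the 2 classes stood in very different proportions. On the CPM per kb scale, replication-dependent genes gave 1.14 to 3.10% of H2A messages and no more than 0.952% of H3 messages in any library. In the linker family they gave 31.2%, 39.5%, 46.4% and 52.5% in G1, against 23.2%, 32.3%, 29.96% and 46.3% in G0. Hist1h1c alone made up 29.8%, 38.1%, 40.6% and 51.1% of H1 messages in G1, against 21.8%, 30.7%, 25.7% and 44.9% in G0. H1f0 made up 67.5%, 59.1%, 49.9% and 47.0% in G1, against 75.4%, 66.4%, 64.1% and 52.4% in G0. The share of Hist1h1c was thus higher in G1 in every run, by 6.18 to 14.9 percentage points. That of H1f0 was lower, by differences of -14.2 to -5.40 points, while the phases overlapped across runs. These genes make up most of the same sum, so a larger share of Hist1h1c leaves a smaller one for H1f0. The level of H1f0 itself was not lower in G1, with a log2 fold change of 0.10 ± 0.12.

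**Figure D5:**
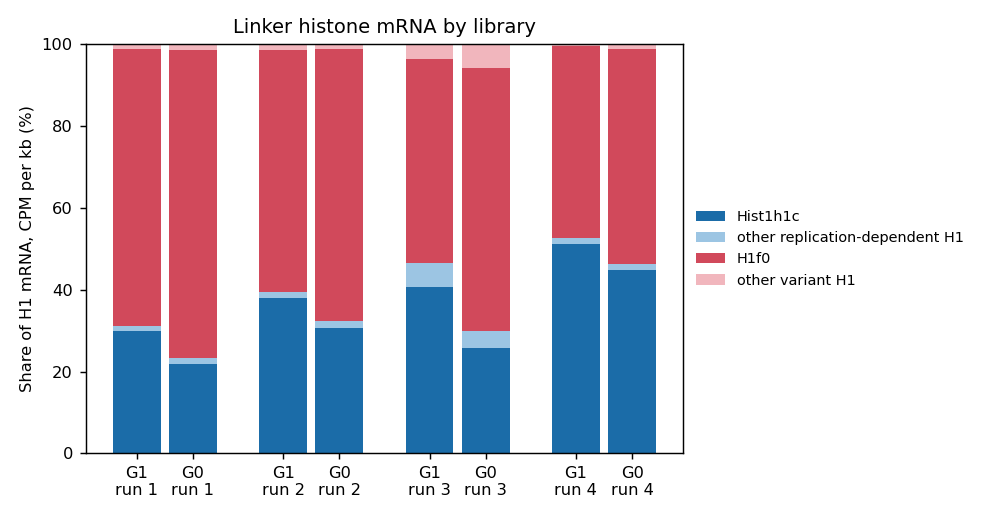
Share of linker histone messages per library, in percent of summed CPM per kb, with the G1 bar left of the G0 bar in each run. Hist1h1c takes a larger share in G1 than in G0 in each of the 4 runs, 29.8 to 51.1% in G1 and 21.8 to 44.9% in G0. H1f0 takes a smaller share, which mirrors that of Hist1h1c, and its own level was not called different.

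Among H2B genes, Hist1h2bc gave 91.1%, 91.3%, 82.7% and 88.1% of messages in G1, against 94.0%, 85.2%, 55.1% and 75.8% in G0. It was the larger share in G1 in runs 2, 3 and 4 and the smaller in run 1. H3f3b gave 76.8 to 94.8% of the summed H3f3a and H3f3b messages over the 8 libraries, with no shared direction between phases. Hist1h4d gave 29.3%, 41.8%, 35.5% and 41.9% of H4 messages in G1, against 35.9%, 52.3%, 47.8% and 32.9% in G0, lower in G1 in runs 1 to 3.

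Run 3 stood apart from the other runs for several histone genes in both phases. H1f0 had 42.0 CPM in G1 and 47.5 CPM in G0 of run 3, against 146 to 290 CPM in the other 6 libraries, and Hist1h1c had 25.9 and 14.5 CPM against 54.3 to 183 CPM. The opposite held for H2afz, H3f3a and Hist1h4d, which were above the other 6 libraries in both phases. Of 2 replication genes, Pcna, the sliding clamp, was at 128 CPM in G1 and 143 CPM in G0 of run 3 against 56.6 to 72.8 CPM in the others, and Mcm2, a helicase subunit, at 2.74 and 1.97 CPM against 11.7 to 15.3 CPM. Without run 3 the summed replication-dependent log2 ratio was 0.57, and both Hist1h2bc and Hist1h1c were still called.

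Several members share their position with another gene. Of the 82, 32 overlap another annotated gene and 29 of these on the opposite strand. How the authors' counting treated strand is in none of the sources used here, so reads of such pairs cannot be told apart. H3f3a averaged 411 CPM and its antisense neighbour Gm17275 237 CPM, H2afj 99.5 CPM and Gm44364 55.3 CPM, H2afy2 31.6 CPM and Aifm2 94.5 CPM, and H1fx 2.42 CPM and Gm5577 50.4 CPM over all libraries. H2afz shared 58.8% of its windows with other genes and H3f3a 26.3%, which makes their levels less certain than those of Hist1h1c, at 5.07%. The same limit holds for Hist1h2bc, at 25.4%.

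Genes that make, process or load histones were set beside the histone messages. The counts of each list below are to be read against all 15192 tested genes. Of those, 1.24% were called, 12.3% had an unadjusted edgeR p under 0.05 and 7769 had positive fold changes. At that rate of calls, lists this small can hold none without differing from all genes. Of 25 genes for histone mRNA processing and decay, all tested, 11 had positive fold changes with a median of -0.00, and 0 passed the threshold by edgeR, DESeq2 or limma-voom, with 4 at an unadjusted p under 0.05. Slbp, which binds the stem-loop, averaged 89.2 ± 15.2 CPM in G1 and 89.2 ± 29.7 CPM in G0, a log2 fold change of 0.03 ± 0.12. The smallest p-values belonged to Snrpe and Snrpd3, both Sm proteins of the U7 particle that cuts histone messages, and Tut7, a terminal uridylyltransferase. Snrpe averaged 94.2 ± 29.0 CPM in G1 and 72.8 ± 33.8 CPM in G0, with a log2 fold change of 0.44 ± 0.13 and an edgeR adjusted p of 0.120. Tut7 averaged 59.1 ± 8.07 CPM in G1 and 74.9 ± 3.48 CPM in G0 and was lower in G1 in all 4 runs, with a log2 fold change of -0.35 ± 0.13 and an edgeR adjusted p of 0.228. Snrpd3 had a log2 fold change of 0.28 ± 0.12, with an edgeR adjusted p of 0.297.

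Of 28 histone chaperone and deposition genes, 27 were tested, 16 were positive with a median of 0.04, and 0 passed by any of the 3 tools, with 2 at an unadjusted p under 0.05. Npm1, the nucleolar chaperone nucleophosmin, had a log2 fold change of 0.28 ± 0.12 (edgeR adjusted p = 0.295). Ep400, an ATPase that loads H2A.Z, had -0.33 ± 0.15, and Ubn1, a partner of the H3.3 chaperone Hira, -0.21 ± 0.12, with edgeR adjusted p of 0.388 and 0.477.

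Of 21 S-phase and division genes, 19 were tested, 13 were positive with a median of 0.11, and 0 passed by any of the 3 tools, with 3 at an unadjusted p under 0.05. Tyms, which makes thymidylate for DNA synthesis, averaged 9.19 ± 1.92 CPM in G1 and 6.07 ± 1.03 CPM in G0, with a log2 fold change of 0.58 ± 0.24 and an edgeR adjusted p of 0.305. Cdk1, the kinase that drives mitosis, had a log2 fold change of 1.26 ± 0.56, and Mcm5, a helicase subunit, 0.54 ± 0.24, with edgeR adjusted p of 0.353 and 0.354. Their summed level was 385 to 481 CPM in G1 and 391 to 439 CPM in G0, and the part of S-phase cells in the histone results was not tested.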

How the data were processed

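Polyadenylated RNA of sorted basal cells was sequenced as 100-base pairs after oligo-dT selection with a stranded TruSeq kit, per the labels' protocols. The submitters' processing notes name STAR 2.5.2a, Trimmomatic 0.35 and the build mm10. The authors deposited raw read counts, as unnormalized whole numbers for each Ensembl gene. No source used here names the counting program, its annotation or how it treated strand. Of 54837 identifiers, 54808 matched GENCODE M21 and 29 did not, and 0 sample columns were left unused.

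The members, the gene lists and the main test, with its run block, were chosen with earlier results of these data known. Counts were scaled by TMM and filtered with filterByExpr by phase, which left 15192 genes. The main test was the two-sided quasi-likelihood test of edgeR 4.0.16 under R 4.3.3, robustly fitted, with phase and run in the model, since the genes are compared within runs, and Benjamini-Hochberg adjustment over all tested genes at 0.05. The SE was obtained by dividing the size of the log2 fold change by the root of F. A prior count of 2 was added for log2 ratios per run. The 12 pairs of libraries within a phase differed by 21.7 to 95.1 times the sampling noise, so none was counted as a copy. The pairing by run comes from the titles, and deviations from the phase mean correlated between libraries of the same run at 0.437 to 0.668, against at most 0.0971 between runs. Whether each run used its own animals is not stated, and p-values then reflect only how these samples spread, possibly for technical reasons. The test was tried on simulated counts with known changes.

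Values per library are given for Hist1h2bc, the 5 replication-dependent and 5 variant genes with the highest mean CPM per kb and every member with an unadjusted p under 0.05, and for the other lists the 3 genes of smallest p are named. Hist1h2ac, Hist1h1e, Slbp, Pcna, Mcm2, some of the named cell type markers and the genes between Hist1h2bc and Hist1h1c lie outside that rule. They were chosen with their values in view. Tut4 and Tut7 stand for the listed older symbols, matched through RefSeq synonyms. Promoters are from RefSeq GRCm38.p6, matched by symbol or synonym and kept where they lie within 1000 bases of the gene. Alternatives were no run block, RLE and total-count scaling, other count filters, DESeq2 1.42.0, limma-voom (limma 3.58.1) and each run left out. Offsets for transcript length and GC were chosen after seeing the data.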

Additional observations from a re-analysis of the deposited data

Results flagged for a closer look

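In each phase the highest and lowest of the 4 libraries were compared with their nearest neighbour for each of the 22 tested histone genes, 44 groups in all, and 4 groups held a library far from the other 3 (Dixon's critical value at 95%). Chance alone sets apart about 1 in 20 groups. H2afz, encoding H2A.Z, had 465 CPM in the G0 library of run 3, against 97.8 to 119 CPM in the other G0 libraries. H2afj had 148 CPM in the G1 library of run 3, against 86.4 to 95.6 CPM in the other G1 libraries. The H4 gene Hist1h4h had 3.56 CPM in the G1 library of run 3, against 0.610 to 1.04 CPM in the others. The H4 gene Hist4h4 had 1.68 CPM in the G1 library of run 2, against 0.423 to 0.508 CPM in the others.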

How the results depend on the processing

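Hist1h2bc and Hist1h1c were called higher in G1 under all 11 alternatives that kept the replicate block, with log2 fold changes of 0.80 to 1.02 and 0.61 to 0.79. Without the replicate block 0 of the replication-dependent genes were called, with or without length and GC offsets, and 0 genes of all tested were higher and 0 lower, with 425 at an unadjusted p under 0.05. Over all genes, 126 were higher and 184 lower with no low-count filter, 134 were higher with length and GC offsets and the block, and 22 to 99 were higher and 78 to 175 lower when 1 run was left out. The lowest count of 22 came without run 4. No variant gene and no gene of the processing, chaperone and S-phase lists was called under any setting run. Signs that turned belonged to uncalled genes. H2afz gave -0.039 without the block, -0.024 with offsets and block, and -0.092 with offsets alone, and Hist1h4h gave 0.073 without the block and 0.032 by limma-voom. With 1 run left out, the log2 fold changes of H2afz ran from -0.042 to 0.19, Hist1h4h from -0.24 to 0.20 (it was not tested without run 3), Hist2h2be from -0.53 to 0.42, Hist1h3f from -0.014 to 0.43, H1f0 from -0.072 to 0.18, H1fx from -0.10 to 0.16, H2afx from -0.011 to 0.13 and H2afy from -0.0086 to 0.090. The cause of these changes was not tested. Requiring 10 counts in every library left 3 replication-dependent genes. The 55 replication-dependent genes with too few counts were not tested.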
